A study of Mus musculus with 17 samples.

Results

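The TAM receptors Tyro3, Axl and Mertk and their ligands Gas6 and protein S (gene Pros1) were followed in mouse lung RNA. The 5 genes were chosen by name, as the members of this receptor and ligand family, out of 31245 genes in the deposited table. All 5 were among the 26946 genes that reached a sum of 20 counts over the libraries and were tested. Lungs came from wild-type mice (WT), mice without mouse PPARα (KO) and humanized PPARα mice (KI), which carry human PPARα, a nuclear receptor that senses fatty acids. WT mice were of the Sv/129 strain and were bought, whereas KO and KI mice were bred from pairs of PPARα null and human PPARα heterozygous mice, so colony and genotype cannot be told apart in any comparison with WT. From 6 weeks of age all mice ate the same diet modelled on American intake, and drank either sucrose water (vehicle) or sucrose water with 6.2 μg/mL perfluorooctanoic acid (PFOA), a persistent fluorinated surfactant, for 14 weeks. There were 2 WT vehicle libraries and 3 in each of WT PFOA, KO vehicle, KO PFOA, KI vehicle and KI PFOA, 1 library per mouse. All 6 KO mice were female, and the other groups held both sexes. Libraries are named here by group and mouse number.

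TAM receptors are receptor tyrosine kinases on macrophages, dendritic cells and many other cells. Gas6 and protein S act as bridges: a domain modified in a vitamin K dependent step holds phosphatidylserine on the surface of a dying cell, and the other end binds the receptor. Gas6 binds each of the receptors and binds Axl most tightly, and protein S activates Tyro3 and Mertk. Engaged receptors drive the uptake of apoptotic cells and dampen Toll-like receptor and interferon signalling, and in the lung they are best known from alveolar macrophages.

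In GRCm38 (mm10) with GENCODE M21, Tyro3 lies on the plus strand of chromosome 2 (chr2:119797733-119818104), and Mertk on the same strand of the same chromosome (chr2:128698956-128802894). Axl is on the minus strand of chromosome 7 (chr7:25757273-25788705), Gas6 on the minus strand of chromosome 8 (chr8:13465374-13494490) and Pros1 on the plus strand of chromosome 16 (chr16:62854307-62929346). Mertk contains the antisense gene Gm14011, which had 15 counts in all libraries together and shares no exon base with it. The snoRNA gene Gm23172 also lies in Mertk, on the same strand. It shares no exon base with Mertk and was not among the genes counted. Gas6 shares 34 exon bases with Tmem255b on the opposite strand, which had 54 counts in all. How many reads of other genes were counted for these 5 was not examined.

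The 250 bases before the RefSeq start of Tyro3 and of Mertk (GRCm38.p6, 5′ to 3′ on the strand of the gene) are shown because these were the receptors with the widest differences between groups. Capitals mark GGGCGG or its reverse complement, the core of the GC box. The Tyro3 window is chr2:119799264-119799513 and lies inside the GENCODE gene, over exons of other Tyro3 transcripts. The Mertk window is chr2:128698665-128698914 and holds no annotated exon.
Tyro3: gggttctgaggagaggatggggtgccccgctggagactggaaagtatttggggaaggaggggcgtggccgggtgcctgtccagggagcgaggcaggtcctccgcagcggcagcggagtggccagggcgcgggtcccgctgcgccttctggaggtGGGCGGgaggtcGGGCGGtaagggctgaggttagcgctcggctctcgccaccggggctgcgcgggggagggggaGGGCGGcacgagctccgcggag
Mertk: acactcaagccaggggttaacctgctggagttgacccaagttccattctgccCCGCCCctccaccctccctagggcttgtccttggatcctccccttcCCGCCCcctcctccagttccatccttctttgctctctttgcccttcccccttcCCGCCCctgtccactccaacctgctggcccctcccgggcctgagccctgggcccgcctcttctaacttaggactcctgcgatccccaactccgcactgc
Each window held 3 matches to GGGCGG on either strand, against 1 in the Axl, 4 in the Gas6 and 5 in the Pros1 window (of which a pair overlap), and 32.7% of 32851 RefSeq windows of this length held at least 1. AGGTCA, the hexamer bound by nuclear receptors such as PPARα, was in 14.0% of all windows and was not found on either strand in any of the 5. A match or its absence describes these letters only.

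Library totals ran from 4116116 to 9237385 counts (median 7524817), so that 3 counts stood for 0.325 to 0.729 CPM, the TMM-scaled unit of counts relative to library size. Protein-coding genes took 65.3% of the counts in WT vehicle 122 and 61.3% in KO vehicle 137, against 74.4 to 80.4% in the other 15 libraries. Values that rest on these 2 libraries are given with and without them below, with some exceptions. Marker medians, the median over the 5 genes and permutation p-values are given with them only. The Axl, Mertk and Gas6 differences over the 3 genotypes are given as ranges that include leaving out both. Markers of lung epithelium were present throughout, with 2840 to 9370 CPM summed over 5 alveolar type 2 genes. Ppara was at 4.39 to 7.21 CPM in the 5 WT libraries, 8.82 to 11.7 CPM in the 6 labelled KO and 9.08 to 20.4 CPM in the 6 labelled KI. It was higher than in WT by 0.76 ± 0.20 on the log2 scale in KO (edgeR adjusted p 0.0568) and by 1.27 ± 0.20 in KI (edgeR adjusted p 0.00176). These are counts over the whole gene, and reads outside the altered part do not check the label. In whole lung, fewer cells of a type and less RNA per cell cannot be told apart.

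All 5 genes were well above the level of 3 counts in every library. Per kilobase of exon, the scale on which genes can be compared, Gas6 was the highest and Tyro3 the lowest of the 5 in all 17 libraries. Gas6 averaged 54.8 ± 10.4 CPM per kb (SD, n = 17), Axl 22.4 ± 2.74, Mertk 18.6 ± 4.90, Pros1 17.8 ± 4.41 and Tyro3 2.09 ± 0.823. Gas6 made up 71.7 to 87.1% of the ligand sum per kb. Axl, Mertk and Pros1 changed places between libraries: Mertk was above Axl in 5 of 5 WT libraries and in 0 of 6 KO libraries, and in KI it was above Axl in 1 of 6 (KI PFOA 80). Of the sum of the 3 receptors, Mertk took 44.6 to 53.1% in WT, 36.4 to 43.0% in KO and 29.6 to 51.3% in KI. The WT and KO shares did not overlap, and the KI shares spanned both. Whether Mertk or Axl is the higher depends on the exon lengths used (4336 bases for Mertk and 5033 for Axl). In WT vehicle 122 they were close, with Mertk at 44.6% and Axl at 43.8%.

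**Figure D1:**
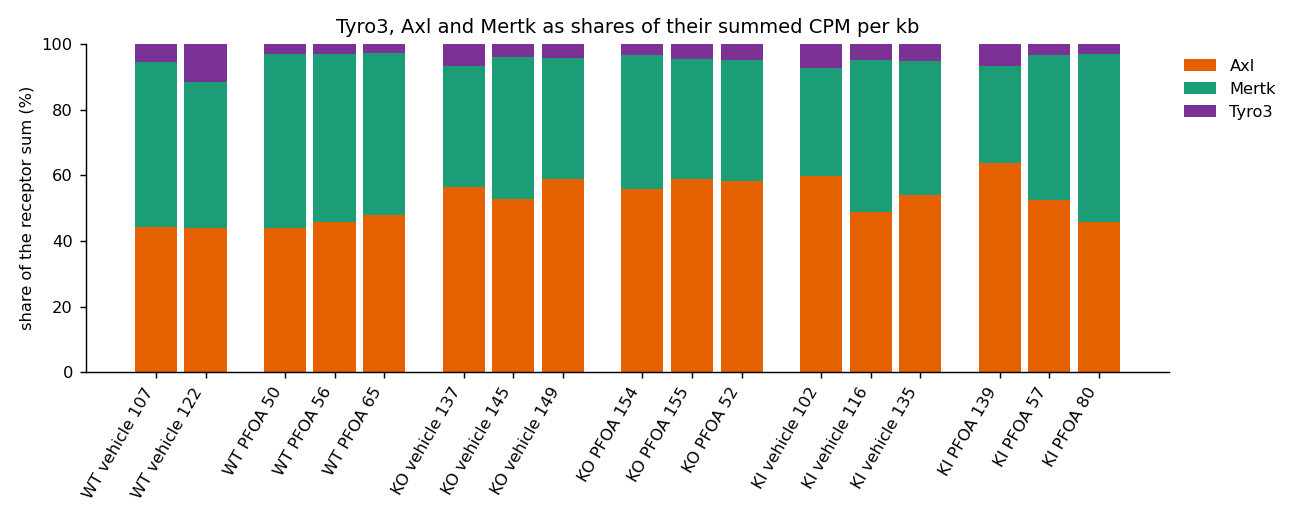
Shares of Tyro3, Axl and Mertk in the summed CPM per kb of the 3 receptors, in percent (y axis), 1 stacked bar for each of the 17 libraries. Mertk took 44.6 to 53.1% in WT and 36.4 to 43.0% in KO libraries, and Tyro3 was the smallest share in each bar.

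Tyro3, the receptor best known from the nervous system, differed most between WT mice on PFOA and on vehicle. Its levels were 15.5 and 29.6 CPM in WT vehicle 107 and 122, and 8.74, 9.21 and 8.48 CPM in WT PFOA 50, 56 and 65. Both vehicle libraries were above all 3 PFOA libraries, and the vehicle libraries lay far apart from each other. The difference was -1.35 ± 0.28 on the log2 scale (SE), a 2.55-fold lower level on PFOA, with an edgeR adjusted p of 0.304, and Tyro3 ranked 4 of all genes by p. By the rule used here (an adjusted p below 0.2 with a change of more than 2-fold) it was not called, and edgeR called 0 of the 5 genes and 0% of all 26946 in this comparison. With DESeq2 the difference was the same and its adjusted p was 0.0576, which passes the rule, as did 0.0891% of all genes, and with the default filters of DESeq2 the adjusted p was 0.0372, with 0.496% of the genes called.

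The Tyro3 value in WT rested on the 2 vehicle libraries. Without WT vehicle 107 the difference was -1.75 ± 0.29 and passed the rule (edgeR adjusted p 0.0114). Without WT vehicle 122 it was -0.80 ± 0.30 with an edgeR adjusted p of 1, and with both libraries of low protein-coding share left out it was -0.81. The lone vehicle library left in such a fit is assumed to vary like the libraries of the other groups. An exact permutation test of 3 against 2 libraries gave p = 0.1, the smallest it can give.

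Most airway markers were lower on PFOA in WT, as Tyro3 was. The 6 ciliated cell markers summed to 201 and 469 CPM in WT vehicle 107 and 122 and to 128, 133 and 202 CPM in WT PFOA 50, 56 and 65, with 6 of 6 lower on PFOA and a median log2 difference of -1.12. The 5 club cell markers summed to 11400 and 24900 CPM on vehicle and 6750 to 8690 CPM on PFOA, with 3 of 5 lower (median -1.05), and all 5 smooth muscle markers were lower (median -0.68). The mean log2 CPM of the 11 ciliated and club cell markers was 5.94 in WT PFOA 65, above the 5.22 of WT vehicle 107. Tyro3 was at 8.48 CPM in the former and 15.5 CPM in the latter. With this marker mean as a covariate the Tyro3 difference was -1.10 ± 0.26, and with the protein-coding share as a covariate -1.05 ± 0.28. The part of airway content in the result was otherwise not tested.

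**Figure D2:**
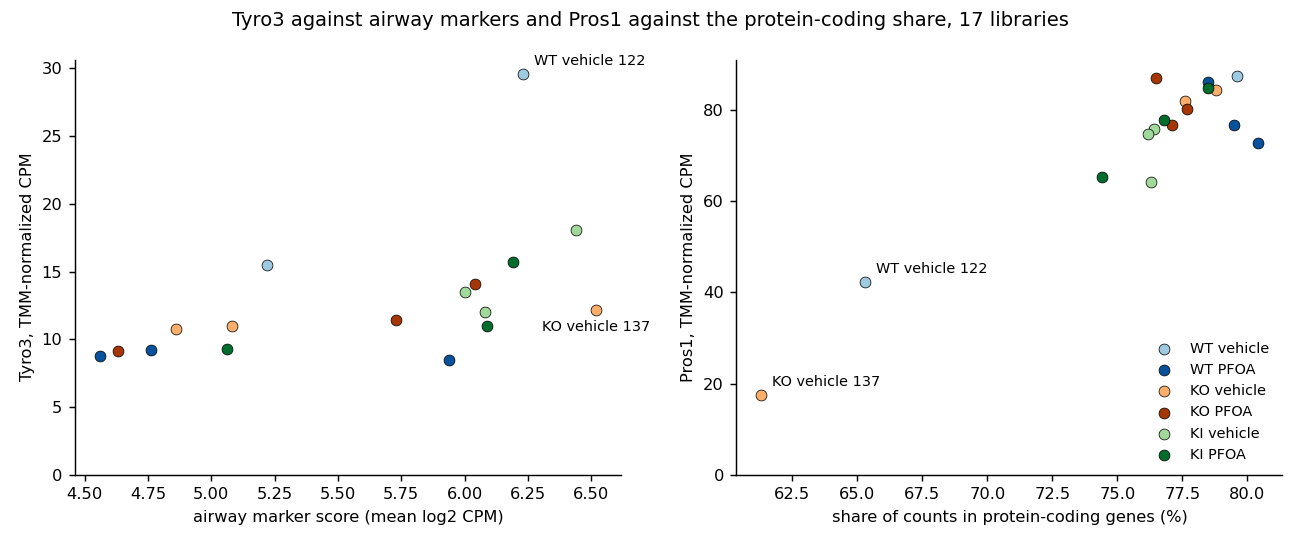
Tyro3 CPM against the airway marker score (mean log2 CPM of 11 ciliated and club cell markers, left) and Pros1 CPM against the percentage of counts in protein-coding genes (right), 1 point per library, coloured by group. WT vehicle 122 had the highest Tyro3 level (29.6 CPM), and Pros1 was lowest in the 2 libraries of lowest protein-coding share.

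The other receptors were higher on PFOA than on vehicle in WT. Axl, the main Gas6 receptor, was at 99 and 91.4 CPM on vehicle and at 108, 113 and 118 CPM on PFOA, a log2 difference of 0.25 ± 0.16 (edgeR adjusted p 0.751). Mertk, the receptor tied most closely to uptake of dying cells by macrophages, was at 97.0 and 80.1 CPM on vehicle and at 113, 109 and 105 CPM on PFOA, a difference of 0.30 ± 0.26 (edgeR adjusted p 0.822). For Tyro3, Axl and Mertk the WT libraries of the groups did not overlap, which held for 22.5% of all genes in this comparison of 3 against 2. By edgeR's unadjusted p under 0.05, 1 of the 5 genes (Tyro3) passed, against 7.35% of all genes.

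The ligands showed no such separation. Gas6 was at 181 and 110 CPM in the WT vehicle libraries and at 163, 171 and 127 CPM on PFOA (log2 difference 0.077 ± 0.25, edgeR adjusted p 0.963). Pros1, whose product is also an anticoagulant cofactor of protein C, was at 87.6 and 42.3 CPM on vehicle and at 86.2, 72.9 and 76.7 CPM on PFOA (0.27 ± 0.39, edgeR adjusted p 0.896). In both genes WT vehicle 122 was the lowest of the 5 WT libraries and WT vehicle 107 the highest. Without WT vehicle 122 the differences turned to -0.23 for Gas6 and -0.15 for Pros1.

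**Figure D3:**
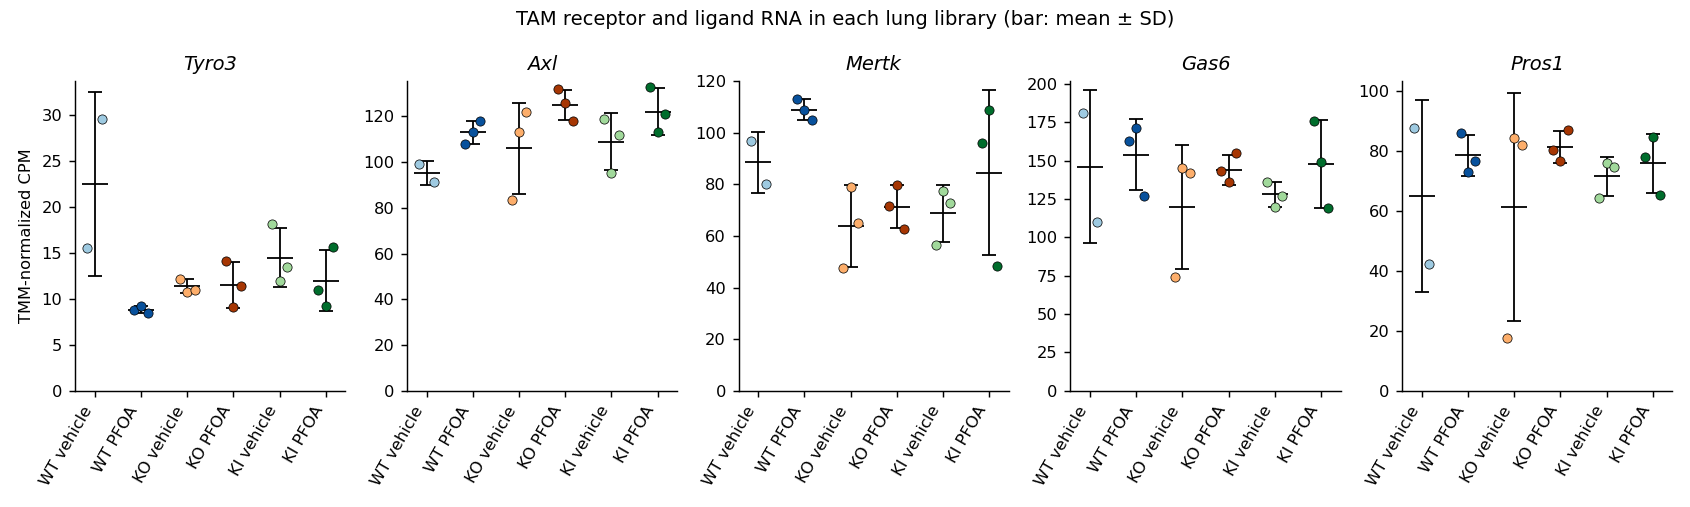
TMM-normalized CPM (y axis, from 0) of Tyro3, Axl, Mertk, Gas6 and Pros1 in 17 lung libraries by group, with 1 point per library and a bar for the mean ± SD. Tyro3 was at 8.48 to 9.21 CPM in WT PFOA, below the 2 WT vehicle libraries at 15.5 and 29.6 CPM.

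In KO lungs none of the 5 genes was called for PFOA against vehicle, nor was any gene (0% with edgeR), and 0 of the 5 had an unadjusted edgeR p under 0.05, against 9.79% of all genes. Tyro3 was at 12.2, 10.8 and 11 CPM in KO vehicle 137, 145 and 149 and at 14.1, 9.16 and 11.4 CPM in KO PFOA 52, 154 and 155. The groups overlapped, with a log2 difference of 0.022 ± 0.26 that turned negative under several settings. Axl was at 83.6, 113 and 122 CPM on vehicle and 132, 126 and 118 CPM on PFOA (0.24 ± 0.14). Mertk was at 47.5, 78.9 and 65.2 CPM on vehicle and 71.8, 79.6 and 62.9 CPM on PFOA (0.16 ± 0.23). The lowest Axl and Mertk values were both those of KO vehicle 137.

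KO vehicle 137 was also the lowest of all 17 libraries for both ligands. Gas6 was at 73.9 CPM there, at 145 and 142 CPM in the other KO vehicle libraries and at 143, 136 and 155 CPM on PFOA (0.26 ± 0.23). Pros1 was at 17.5 CPM in KO vehicle 137 and at 84.4 and 82.0 CPM in the others, against 80.3, 76.7 and 87.0 CPM on PFOA (0.39 ± 0.35). Without KO vehicle 137 the differences in KO came to 0.096 for Axl, -0.011 for Mertk, 0.0059 for Gas6 and -0.035 for Pros1. All 3 KO PFOA libraries carried an i5 index that none of the KO vehicle libraries carried, so index and exposure cannot be told apart in KO alone.

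In KI lungs 0% of the genes, and 0 of the 5, were called by edgeR for PFOA against vehicle, and 0 of the 5 had an unadjusted p under 0.05, against 2.59% of all genes. Tyro3 was at 18.1, 12 and 13.5 CPM in KI vehicle 102, 116 and 135 and at 11, 9.25 and 15.7 CPM in KI PFOA 57, 80 and 139, a difference of -0.28 ± 0.25. Mertk was at 56.4, 77.3 and 72.7 CPM on vehicle and at 96.0, 109 and 48.5 CPM on PFOA, a difference of 0.30 ± 0.23. KI PFOA 139 stood apart from the other KI PFOA libraries in both receptors, with the highest Tyro3 and the lowest Mertk level of the 3. Without it the differences were -0.52 for Tyro3 and 0.58 for Mertk. Axl differed by 0.17 ± 0.14, Gas6 by 0.22 ± 0.22 and Pros1 by 0.086 ± 0.35. The libraries of the groups overlapped for each of the 5 genes, and 8.23% of all genes did not overlap in this comparison.

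The PFOA differences were then set against each other between genotypes. For Tyro3 the effect in KO exceeded that in WT by 1.37 ± 0.38 on the log2 scale, with an edgeR adjusted p of 0.669, and the effect in KI exceeded that in WT by 1.07 ± 0.38, with an edgeR adjusted p of 0.999. Neither passed the rule, which 0% of the genes passed in each. DESeq2 also called 0 of the 5 genes in KO, in KI and in both of these differences, where its share of all genes is not given. Tyro3 was the 1 gene of the 5 with an unadjusted edgeR p under 0.05 in both, against 7.46% of all genes for KO and 4.58% for KI. Without WT vehicle 107 the Tyro3 differences came to 1.77 and 1.46 and both passed the rule, and without WT vehicle 122 they came to 0.83 and 0.52. Axl, Mertk, Gas6 and Pros1 differed between genotypes in their PFOA effects by -0.19 to 0.18, less than the SE of each difference.

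Over the 3 genotypes, with genotype in the model and all 17 libraries, Tyro3 was lower on PFOA by 0.49 ± 0.19 on the log2 scale. The other 4 genes were higher. The vehicle libraries held 10.8 to 29.6 CPM of Tyro3 (median 12.9, n = 8) and the PFOA libraries 8.48 to 15.7 CPM (median 9.25, n = 9). The edgeR adjusted p was 0.520, and an exact permutation test with exposure permuted within genotype (4000 arrangements, two-sided) gave p = 0.0248. Without WT vehicle 122 the difference was -0.28. Axl had the smallest spread relative to its difference, with 83.6 to 122 CPM on vehicle (median 105, n = 8) and 108 to 133 CPM on PFOA (median 118, n = 9). It was higher by 0.22 ± 0.081, a 1.16-fold difference, with an edgeR adjusted p of 0.504 and an exact permutation p of 0.00275. Leaving out any 1 library kept it between 0.17 and 0.25. Both libraries of low protein-coding share were vehicle libraries and had the lowest Axl levels of all. These were 83.6 CPM in KO vehicle 137 and 91.4 CPM in WT vehicle 122. Leaving out 1 library at a time does not remove both. Over 30 alternatives, which include leaving out both, the Axl difference ran from 0.15 to 0.25. The permutation p-values include both libraries.

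Mertk differed by 0.25 ± 0.13 over the 3 genotypes, Gas6 by 0.19 ± 0.13 and Pros1 by 0.25 ± 0.20, with exact permutation p-values of 0.123, 0.187 and 0.2. Over 30 alternatives, which include leaving out both libraries of low protein-coding share, these differences ran from 0.13 to 0.33, 0.04 to 0.28 and -0.011 to 0.36. Without both libraries Pros1 was at -0.011. Each exact p is 1 of 35 such tests, 5 genes in 7 comparisons, and is not adjusted. None of the 5 genes passed the rule here with edgeR or DESeq2, and edgeR called 0% of all genes, while the DESeq2 share is not given. Tyro3 and Axl had an unadjusted edgeR p under 0.05, against 8.27% of all genes. With both of those libraries included, the median log2 difference was 0.22 over the 5 genes and -0.012 over all genes tested.

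Over the 3 genotypes, markers of macrophages and of most other cell types were higher on PFOA, as Axl was, but airway and smooth muscle markers were not. Lower were 6 of 6 ciliated cell markers (median log2 difference -0.52) and 4 of 5 club cell markers (-0.42). All 5 smooth muscle markers were also lower (-0.20). All 6 alveolar macrophage markers were higher on PFOA (median log2 difference 0.43). They summed to 85.5 to 224 CPM in WT vehicle and 150 to 270 CPM in WT PFOA, to 57.8 to 153 CPM in KO vehicle and 229 to 261 CPM in KO PFOA, and to 128 to 149 CPM in KI vehicle and 138 to 222 CPM in KI PFOA. All 6 markers of interstitial macrophages and monocytes were higher (median 0.41), summing to 46 to 52.9 CPM in WT vehicle and 58.7 to 68.6 CPM in WT PFOA, to 42.2 to 80.2 CPM in KO vehicle and 102 to 128 CPM in KO PFOA, and to 51.8 to 96.6 CPM in KI vehicle and 78.8 to 88.4 CPM in KI PFOA. The sums of both lists were separate between exposures in KO, and in KI the PFOA sums of the second list lay inside the vehicle range. All 5 NK and T cell markers were higher (median 0.72), with sums of 5.08 to 9.59 CPM in WT vehicle, 12.4 to 15.2 CPM in WT PFOA, 8.02 to 13.6 CPM in KO vehicle, 14.6 to 26.3 CPM in KO PFOA, 12 to 14.3 CPM in KI vehicle and 12 to 21.3 CPM in KI PFOA. All 4 neutrophil markers (median 1.40), 5 of 5 alveolar type 2, endothelial and fibroblast markers (medians 0.31, 0.20 and 0.19) and 4 of 5 alveolar type 1 markers (median 0.20) were higher too. These medians include the libraries of low protein-coding share. WT vehicle 122 and KO vehicle 137 had the lowest alveolar macrophage sums (85.5 and 57.8 CPM). WT vehicle 107 (224 CPM) lay inside the WT PFOA range. KO vehicle 145 and 149 (152 and 153 CPM) stayed below KO PFOA. KO vehicle 137 also had the lowest alveolar type 2, type 1, endothelial and fibroblast sums (2840, 782, 852 and 799 CPM). The part of these markers in the Axl difference was not tested.

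**Figure D4:**
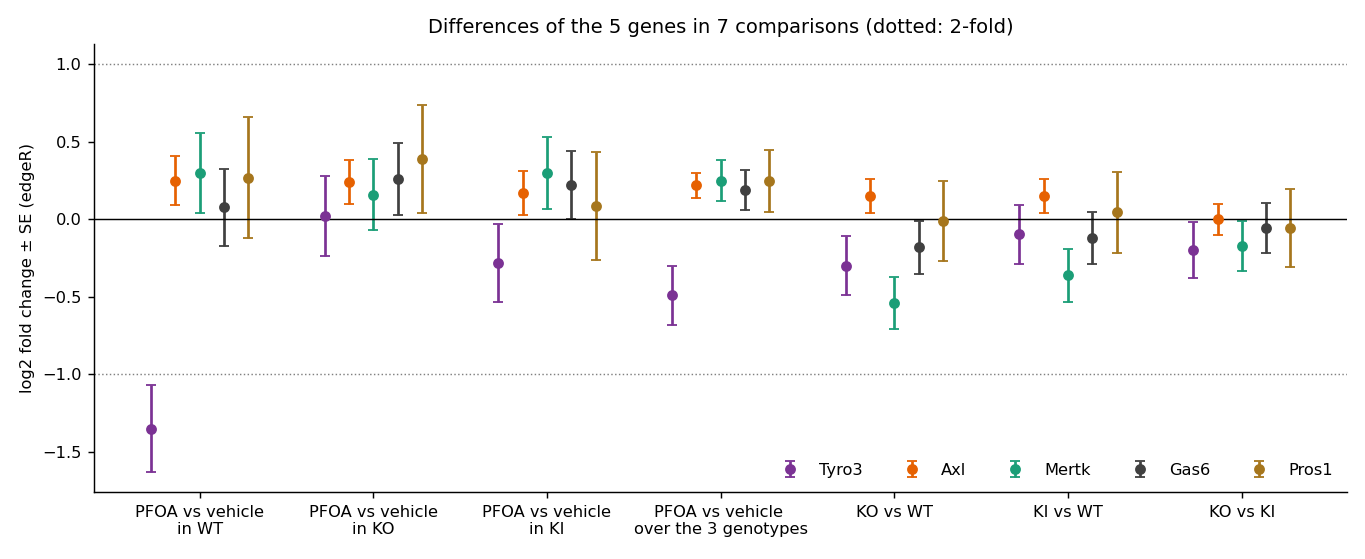
log2 fold changes with SE (edgeR) of the 5 genes in 7 comparisons, with dotted lines at 2-fold. Tyro3 in WT (-1.35) is the 1 value past 2-fold, and Mertk was lower by 0.54 in KO against WT.

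Mertk was the gene of the family that differed most between genotypes when both exposures were averaged. Over both exposures it was at 80.1 to 113 CPM in the 5 WT libraries (median 105), at 47.5 to 79.6 CPM in the 6 KO libraries (median 68.5) and at 48.5 to 109 CPM in the 6 KI libraries (median 75.0). The KO and WT libraries did not overlap, which held for 2.76% of all genes, while KI overlapped with both. KO was lower than WT by 0.54 ± 0.17 on the log2 scale, 1.45-fold, with an edgeR adjusted p of 0.136 and an exact permutation p of 0.01 (genotype permuted within exposure). The adjusted p was under 0.2, as it was for 6.78% of all genes, but the fold change was under 2, so Mertk was not called, and 2.9% of all genes were. The difference was -0.47 in vehicle libraries alone and -0.61 in PFOA libraries alone, and leaving out any 1 library kept it between -0.63 and -0.44. With both libraries of low protein-coding share left out it was -0.51, and in females alone -0.61.

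**Figure D5:**
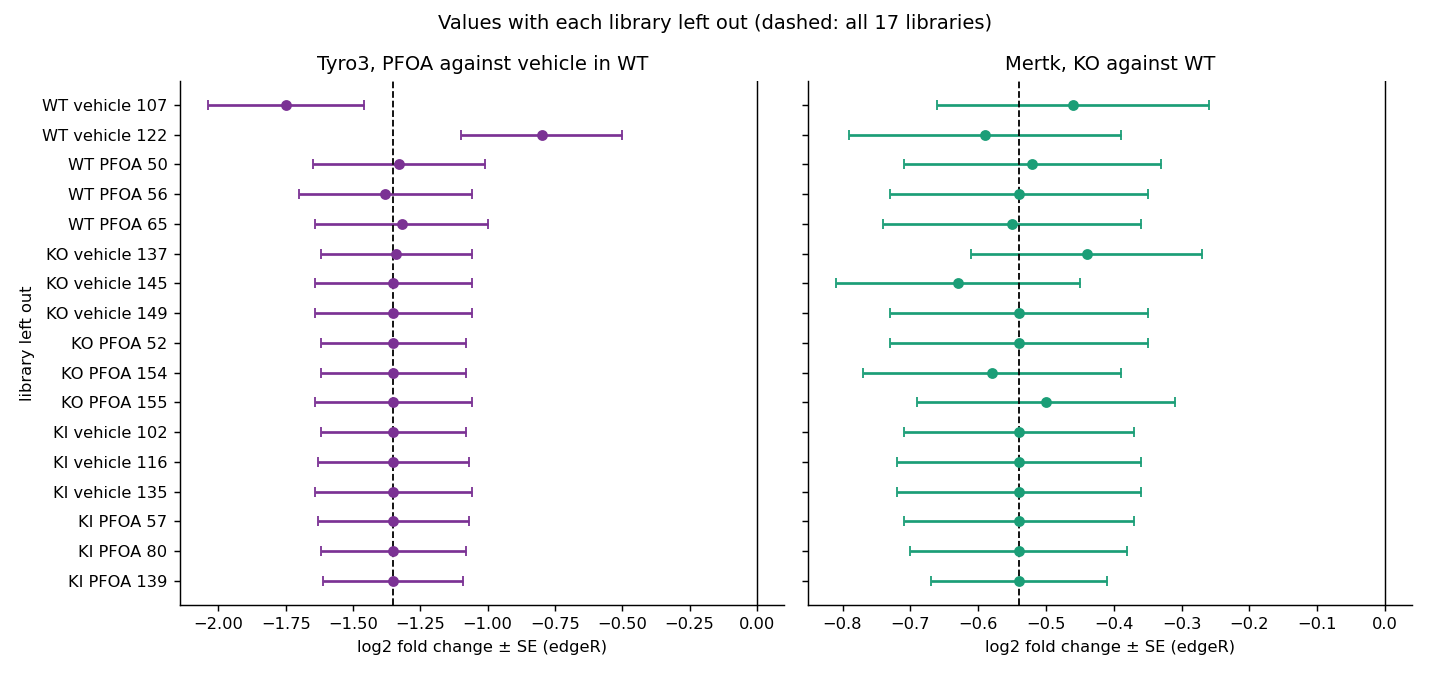
log2 fold change with SE of Tyro3 for PFOA against vehicle in WT (left) and of Mertk for KO against WT (right), with each of 17 libraries left out in turn; the dashed line is the value with all libraries. The Tyro3 value ran from -1.75 to -0.80, set by the 2 WT vehicle libraries, and the Mertk value from -0.63 to -0.44.

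Markers of several cell types lay to one side between KO and WT. All 5 alveolar type 1 markers (median log2 difference -0.31) and all 5 smooth muscle markers (median -0.28) were lower in KO, as Mertk was. KO vehicle 137 had the lowest alveolar type 1 sum (782 CPM, against 1780 and 1710 CPM in KO vehicle 145 and 149), and the medians here include it. Of the alveolar macrophage markers 5 of 6 were higher in KO (median 0.28), as were 6 of 6 interstitial macrophage and monocyte markers (median 0.56), 4 of 4 neutrophil markers (1.12), 4 of 4 B cell markers (1.64) and 4 of 5 NK and T cell markers (0.49). Their part in the Mertk difference was not tested. KI was lower than WT in Mertk by 0.36 ± 0.17 (edgeR adjusted p 0.474, exact permutation p 0.025), with -0.22 when KI PFOA 139 was left out and -0.20 with the airway marker score as a covariate. KO and KI, bred from the same kind of pairs, differed in Mertk by -0.17 ± 0.16.

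Averaged over both exposures, the other genes differed less between genotypes. Axl was 0.15 ± 0.11 higher in KO and in KI than in WT, Tyro3 was lower by 0.30 ± 0.19 in KO and by 0.097 ± 0.19 in KI, and Gas6 was lower by 0.18 ± 0.17 in KO and by 0.12 ± 0.17 in KI. Pros1 differed by -0.011 ± 0.26 in KO and by 0.045 ± 0.26 in KI. The sign of the Tyro3 difference depended on exposure, since in PFOA libraries alone Tyro3 was 0.38 higher in KO and 0.44 higher in KI than in WT. On vehicle Tyro3 averaged 22.5 CPM in WT, 11.4 CPM in KO and 14.5 CPM in KI. Without WT vehicle 122 the averaged Tyro3 differences from WT were -0.022 in KO and 0.17 in KI. None of the 5 was called in KI against WT, where edgeR called 1.61% of all genes, or in KO against KI, where it called 0.00742%. Mertk was the 1 gene of the 5 with an unadjusted edgeR p under 0.05 in KO against WT and in KI against WT, where 13.9% and 10.4% of all genes had one, and 0 of the 5 had one in KO against KI, against 4.74% of all genes.

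By group means, Tyro3 was highest in WT vehicle (22.5 ± 10 CPM, SD, n = 2), followed by KI vehicle (14.5 ± 3.22), KI PFOA (12 ± 3.31), KO PFOA (11.5 ± 2.47), KO vehicle (11.4 ± 0.739) and WT PFOA (8.81 ± 0.369, n = 3 in each). Neighbours in this order overlapped, except that the WT PFOA libraries lay below all KO vehicle libraries. Mertk was highest in WT PFOA (109 ± 3.98 CPM), followed by WT vehicle (88.5 ± 11.9), KI PFOA (84.6 ± 32.0), KO PFOA (71.4 ± 8.35), KI vehicle (68.8 ± 11) and KO vehicle (63.9 ± 15.8), and the 2 WT groups were the only neighbours that did not overlap. For Axl the order was KO PFOA (125 ± 6.72 CPM), KI PFOA (122 ± 10.3), WT PFOA (113 ± 4.88), KI vehicle (109 ± 12.3), KO vehicle (106 ± 20) and WT vehicle (95.2 ± 5.36), with neighbours overlapping throughout. Each PFOA mean was above each vehicle mean, but without KO vehicle 137 the KO vehicle mean was 117 CPM, above WT PFOA. For Gas6 the group means lay between 120 and 154 CPM, lowest in KO vehicle and highest in WT PFOA, and for Pros1 between 61.3 and 81.3 CPM, lowest in KO vehicle and highest in KO PFOA, and all neighbours overlapped in both. Both orders rested on KO vehicle 137 and WT vehicle 122. Without them KO vehicle averaged 144 CPM for Gas6 and 83.2 CPM for Pros1, the 1 WT vehicle library left was highest in both (181 and 87.6 CPM), and KI vehicle was lowest in both (128 and 71.6 CPM). Tyro3 stayed highest in WT vehicle (15.5 CPM) and lowest in WT PFOA, and for Mertk KO vehicle averaged 72.1 CPM and KI vehicle was the lowest group.

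The genes whose log2 CPM followed each member most closely over the 17 libraries were picked as the 3 highest Pearson correlations among 13371 genes, so no p is given, and they share the libraries, their depth and their cell content. For Tyro3 they were Lrrc10b (r = 0.896), Ttc12 (0.875), a gene of motile cilia, and Myb (0.872), a transcription factor active in forming multiciliated cells, and r fell to 0.767, 0.769 and 0.781 without WT vehicle 122 and KO vehicle 137. For Axl they were Plek (0.890), Itgb2 (0.877) and Laptm5 (0.873), all genes of leukocytes, with 0.747, 0.722 and 0.695 without the 2 libraries. For Mertk they were Tcn2 (0.941), a cobalamin carrier, Cyp2b10 (0.937), a cytochrome P450, and Zhx3 (0.936), with 0.935, 0.942 and 0.926 without the 2 libraries. For Gas6 they were Mamdc2 (0.949), Mfge8 (0.947), which is itself a phosphatidylserine bridge, and Gm13991 (0.946), with 0.870, 0.862 and 0.838 without the 2 libraries. For Pros1 they were Itgb1 (0.984), Rhoa (0.982) and Actr2 (0.980), with 0.836, 0.712 and 0.686 without the 2 libraries.

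A wider set of 56 genes in 9 lists around the family was examined, all of them tested. Over the 3 genotypes 44 were higher and 12 lower on PFOA with a median log2 difference of 0.12, against 48.2% of all genes higher, and edgeR called none. An unadjusted edgeR p under 0.05 was reached by 9 of the 56, against 8.27% of all genes. Both libraries of low protein-coding share were vehicle libraries, and without them 35 of the 56 were higher and 21 lower, with a median of 0.032, against 51.5% of all genes higher. In WT 40 were higher and 16 lower, against 53.3% of all genes higher, and 34 were higher and 22 lower without those libraries. edgeR and DESeq2 called none of the 56 in WT, and 2 had an unadjusted edgeR p under 0.05, against 7.35% of all genes. The list values that follow are those of all 17 libraries over the 3 genotypes, with the counts without the low libraries where they differ most. The genes that modify the ligands split 2 higher and 1 lower, with Ggcx, the vitamin K dependent carboxylase, at 0.19 ± 0.12 and Vkorc1l1 at -0.028. Of the sheddases that cut receptors from the membrane, Adam10 was at 0.12 and Adam17 at 0.19. Of the genes for phosphatidylserine exposure 4 of 5 were higher (0 of 5 without the low libraries), with the scramblase Ano6 at 0.058 and the flippase Atp11a at -0.12. Of 14 other phosphatidylserine receptors and bridges 12 were higher (median 0.28, and 10 with a median of 0.081 without the low libraries), with the scavenger receptors Lrp1 at 0.31 and Cd36 at 0.32 (edgeR adjusted p 0.535 and 0.670).

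Of the engulfment genes 7 of 9 were higher (5 of 9 without the low libraries), with the GTPase Rac1 at 0.26 and its activator Dock1 at 0.0014. Of the signalling genes 9 of 10 were higher with and without the low libraries, with the kinase Jak1 at 0.20 and Pik3r1 at 0.21. Of the other ligands Lgals3 (galectin 3) was at 0.34 and Tub at -0.066, with 1 higher and 2 lower (3 higher without the low libraries). Of the partners of protein S 3 were higher and 2 lower, with thrombomodulin (Thbd) at 0.21 and Tfpi at 0.11. Proc, the protein C gene, was the 1 gene of the set called by DESeq2 (adjusted p 0.161, lower, against 0.436 with edgeR). The share of all genes that DESeq2 called in this comparison is not given here. Proc was at 0.281 to 2.99 CPM in the vehicle libraries and at 0 to 0.386 CPM on PFOA, about the level of 3 counts, so no fold is given. In the fit without the low libraries Proc was also lower.

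Between KO and WT, 30 of the 56 genes were higher and 26 lower, against 53.5% of all genes higher. Without the 2 libraries of low protein-coding share 26 were higher and 30 lower, against 52.8% of all genes higher. With all libraries 1 was called, a share no larger than the 2.9% of all genes called. This was Megf10, an engulfment receptor, at 0 to 0.133 CPM in WT vehicle, 0.585 to 1.03 CPM in WT PFOA, 0.628 to 1.84 CPM in KO vehicle and 1.20 to 2.39 CPM in KO PFOA. It was higher in KO by 2.43 ± 0.65 in the fit (adjusted p 0.0636 with edgeR and 0.0828 with DESeq2), a value that depends on the prior count because the WT vehicle libraries were under 3 counts. Without the 2 libraries of low protein-coding share it was 1.88 ± 0.72 and no longer passed (edgeR adjusted p 0.283). Of the nuclear receptors upstream of Mertk, 4 of 5 were lower in KO, and 5 of 5 without the low libraries. With all libraries Rxra was at -0.27 ± 0.099 (edgeR adjusted p 0.210) and Nr1h2 (LXRβ) at -0.20 ± 0.088 (0.304). On PFOA over the 3 genotypes Rxra and Nr1h2 were at 0.067 and 0.012.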

How the data were processed

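Total RNA of whole lung was sequenced with a stranded total RNA kit (1 library per mouse). The authors aligned reads to mm10 with STAR 2.6 in Partek and estimated reads per gene by expectation maximization. The deposited table holds these estimated counts, not normalized, for 31245 genes, with 30.1% of the values not whole, and 0 columns fell outside the sample list. The annotation release and the use of strand in counting are not given in the sources used here. The submitters' processing notes also name DESeq2 3.5. Groups came from the sample labels, and dose, diet, age and breeding from the methods of the study.

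Counts were rounded, and the 26946 genes that summed to 20 counts or more were kept (4299 were left out). edgeR 4.0.16 (R 4.3.3) fitted 1 coefficient per group over 17 libraries with TMM factors and the quasi-likelihood F-test, or an additive model of genotype and exposure for the difference over the 3 genotypes. The Benjamini-Hochberg adjustment covered every gene in the fit, and a call needed an adjusted p below 0.2 with a change of more than 2-fold, as in the study. CPM values are counts per library total after TMM scaling. The exact permutation tests used log2(CPM + 0.5). The fits were tested on simulated data. DESeq2 1.42.0, other scaling factors, filters and covariates, and each library left out were alternatives. Leaving out the 2 libraries of low protein-coding share, and females only, were chosen after seeing the data. Replicates differed by more than sampling noise (chi-square per degree of freedom of at least 6.28). Nothing says how tissue pieces were taken, so p-values measure the spread between these libraries. Lengths and positions came from GENCODE M21 (96.7% of names found once) and windows before gene starts from RefSeq.

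The 5 genes, the 9 lists around them and the 14 marker lists (4 to 6 genes each) were chosen with earlier results of these data known. Genes beyond the 5 were named if called by edgeR or DESeq2, as the 2 most abundant of each list, or as the 3 closest in correlation among genes averaging 5 CPM or more. Every marker was tested; Bpifa1, Nppa and Cd209a were at 0 in some library. Tools were Python 3.11.15, pandas 2.3.3, numpy 2.4.6, scipy 1.17.1 and matplotlib 3.10.9.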

Additional observations from a re-analysis of the deposited data

How the results depend on the processing

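The 5 genes gave 45 log2 differences over 9 comparisons. Of 670 values under other settings, 618 kept their direction and their side of the rule, 2 passed it newly (Tyro3 in WT, by DESeq2 without and with its default filters, so that 1 gene was called in place of 0) and 50 changed sign, spread over 20 of the differences. With an adjusted p under 0.2 and no fold threshold, 1 gene (Mertk) passed in KO against WT. Of 765 values with 1 library left out, 719 were the same in this sense, 3 passed the rule newly, all without WT vehicle 107, and 43 changed sign, so the count of genes called ranged from 0 to 1 for PFOA in WT and for both differences from the WT effect. Tyro3 for PFOA in WT and Mertk in KO and in KI against WT kept their sign under each setting run, as did Axl for PFOA in each genotype. The edgeR or DESeq2 adjusted p of Tyro3 in WT ran from 0.0114 to 1 over its alternatives and that of Mertk in KO against WT from 0.0353 to 0.71. 

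The sign changes, in log2 units with the cause not tested, were these. Tyro3 for PFOA in KO, at 0.022 as reported, was -0.029 with DESeq2, -0.029 with the default filters of DESeq2, -0.029 with RLE factors, -0.090 with upper-quartile factors, -0.035 with filterByExpr, -0.050 with at least 20 counts in 1 library, -0.22 with the i5 index as covariate, -0.0014 with the airway marker score as covariate and -0.015 with only the groups compared. With the protein-coding share as covariate, the differences turned to -0.26 for Gas6 and -0.35 for Pros1 in the PFOA difference of WT, 0.053 for Axl in the PFOA effect in KO minus WT, 0.059 for Axl and 0.22 for Mertk and 0.40 for Pros1 in the PFOA effect in KI minus WT, 0.014 for Pros1 in KO against WT and 0.00062 for Gas6 in KO against KI. With the airway marker score as covariate, the differences turned to -0.096 for Gas6 in the PFOA difference of WT, -0.11 for Pros1 in the PFOA difference of KI, 0.021 for Axl and 0.061 for Mertk in the PFOA effect in KO minus WT, 0.040 for Mertk in the PFOA effect in KI minus WT, 0.072 for Gas6 in KI against WT and -0.025 for Axl in KO against KI. Without both libraries of low protein-coding share, the differences turned to -0.23 for Gas6 and -0.15 for Pros1 in the PFOA difference of WT, -0.010 for Mertk and -0.034 for Pros1 in the PFOA difference of KO, 0.12 for Mertk and 0.23 for Pros1 in the PFOA effect in KI minus WT, 0.17 for Tyro3 and -0.17 for Pros1 in KI against WT, 0.075 for Gas6 and 0.16 for Pros1 in KO against KI and -0.011 for Pros1 in the PFOA difference over the 3 genotypes. With the sex as covariate, the differences turned to 0.010 for Axl in the PFOA effect in KO minus WT and -0.0053 for Pros1 in KI against WT. In the PFOA libraries alone, the differences turned to 0.38 for Tyro3 and 0.048 for Pros1 in KO against WT, 0.44 for Tyro3 and -0.048 for Pros1 in KI against WT and 0.096 for Pros1 in KO against KI. With upper-quartile factors, the differences turned to 0.0078 for Pros1 in KO against WT. With no filter, the differences turned to 5.7e-06 for Pros1 in KO against WT. In females only, the differences turned to 0.11 for Tyro3 and -0.21 for Pros1 in KI against WT and 0.052 for Gas6 in KO against KI. With the i5 index as covariate, the differences turned to -0.062 for Pros1 in KI against WT and -0.037 for Axl in KO against KI. In the vehicle libraries alone, the differences turned to -0.031 for Axl in KO against KI.

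With each library left out, 20 differences changed sign at least once. For the PFOA difference of WT they ran from -0.23 to 0.48 for Gas6 and from -0.15 to 0.90 for Pros1. For the PFOA difference of KO they ran from -0.15 to 0.17 for Tyro3, from -0.011 to 0.34 for Mertk and from -0.035 to 0.68 for Pros1. For the PFOA effect in KO minus WT they ran from -0.16 to 0.097 for Axl, from -0.32 to 0.036 for Mertk, from -0.22 to 0.49 for Gas6 and from -0.51 to 0.54 for Pros1. For the PFOA effect in KI minus WT they ran from -0.23 to 0.28 for Mertk, from -0.26 to 0.44 for Gas6 and from -0.81 to 0.24 for Pros1. For KO against WT they ran from -0.33 to 0.021 for Gas6 and from -0.21 to 0.30 for Pros1. For KI against WT they ran from -0.30 to 0.17 for Tyro3, from -0.28 to 0.078 for Gas6 and from -0.17 to 0.36 for Pros1. For KO against KI they ran from -0.054 to 0.082 for Axl, from -0.13 to 0.077 for Gas6 and from -0.20 to 0.17 for Pros1.

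With 2 to 3 libraries a group and 1 WT vehicle library of low protein-coding share, the SE of a PFOA difference within a genotype was 0.14 to 0.39. Differences of that size could not be told from 0, and much larger ones could go uncalled, as Tyro3 in WT did with edgeR (-1.35 ± 0.28). The level that 3 counts stand for covers counting error only. No paired analysis was possible because mouse numbers are not shared between groups.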
